A study of Mus musculus with 2 samples.

Results

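The 41 genes described here encode proteins that duplicate DNA, or prepare and protect its duplication, in S phase of the cell cycle. They were chosen as the gene symbols of a fixed S phase list that match the symbol column of the deposited feature tables. All 41 were found once among the 31053 genes of the series. They were followed in 2 single-cell RNA libraries of mouse CD24+ γδ T cells, the immature γδ T cells of the thymus. The cells came from fetal thymic lobes of wild-type C57BL/6 embryos at day 15, kept 2 days in culture and left untreated. TMRE, a dye taken up by mitochondria according to their membrane potential, was used to sort a bright fraction, TMREhi, and a dim fraction, TMRElo. From each came 1 library (10x 5′ kit), and the labels do not say how many embryos were pooled. Since neither group has replicates, no test was run and no difference below has a replicate check.

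Replication starts at origins, where the MCM helicase is loaded before S phase and then activated by Cdc45 and the GINS complex. Primase and the DNA polymerases, held by the sliding clamp PCNA, copy both strands, while thymidylate synthase and ribonucleotide reductase supply deoxynucleotides. E2F transcription factors switch many of these genes on as a cell enters S phase. Thymocytes and their immediate precursors divide in bursts around the assembly of their receptor genes, so replication genes mark the dividing cells in this tissue.

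The TMREhi library held 1202 barcodes and the TMRElo library 196, with 0 barcodes shared. Cells were retained with at least 500 genes and at most 10% mitochondrial UMIs, which left 317 TMREhi cells (2905666 UMIs, median 7465 per cell) and 34 TMRElo cells (105080 UMIs, median 1679). All 8 markers of γδ T cells were detected in both libraries, at a summed 3700.0 CPM (UMIs per 1000000 UMIs of the same barcodes) in TMREhi and 4777 CPM in TMRElo. Of 7 markers of αβ lineage thymocytes, 7 were detected in TMREhi (302 CPM) and 3 in TMRElo (200 CPM, with Rag1, Rag2, Cd4 and Ptcra at 0 UMIs). The 5 myeloid markers summed to 75.4 CPM in TMREhi and 0 in TMRElo, and the 4 markers of NK or innate lymphoid cells to 18.2 CPM and 105 CPM. Summed B cell, dendritic, erythroid, epithelial, fibroblast and endothelial markers reached at most 41 CPM in TMREhi and 47.6 CPM in TMRElo retained cells. With all barcodes of at least 500 genes the highest of these sums was the endothelial one, 66.3 CPM in TMREhi and 119 CPM in TMRElo. Its markers Cdh5 and Kdr were at 0 UMIs in both libraries. The part of these cells in the values below was not tested.

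The promoters of 31 of the 41 genes were in the RefSeq table (GRCm38.p6). An E2F-type motif (TTTCGCGC, TTTGGCGC, TTTCCCGC or TTTGCCGC on either strand, in the window from 250 bases before to 50 bases after the start) was present in 12 of the 31 genes, 38.7%. All promoters of the table held it in 2.26%, and those of protein-coding genes in 2.85%. These 2 shares count promoters, not genes, and of the 34 promoters of the 31 genes 12 held it. The 12 genes were Casp8ap2, Cdc6, Cdca7, Clspn, Dtl, Hells, Mcm5, Mcm6, Pola1, Pold3, Ubr7 and Uhrf1. CCAAT, searched on either strand, was in 22 of the 31 genes (71.0%), in 23 of their 34 promoters and in 37.4% of all promoters. The 6 promoters below are those with the motif whose genes had most UMIs over both libraries, and they are shown because they span helicase, chromatin and histone transcript genes that the results below return to. Each runs 5′ to 3′ on the gene's strand to 20 bases past the start, with motif letters in capitals.
Mcm6: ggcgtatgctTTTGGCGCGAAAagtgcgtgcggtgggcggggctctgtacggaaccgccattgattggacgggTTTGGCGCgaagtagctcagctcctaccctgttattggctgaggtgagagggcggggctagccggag
Hells: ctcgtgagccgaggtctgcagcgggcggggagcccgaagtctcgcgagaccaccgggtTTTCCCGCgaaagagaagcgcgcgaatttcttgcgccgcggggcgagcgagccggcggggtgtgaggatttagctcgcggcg
Cdca7: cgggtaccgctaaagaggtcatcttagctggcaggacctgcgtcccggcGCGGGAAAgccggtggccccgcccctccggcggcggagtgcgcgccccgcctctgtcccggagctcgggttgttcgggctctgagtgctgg
Uhrf1: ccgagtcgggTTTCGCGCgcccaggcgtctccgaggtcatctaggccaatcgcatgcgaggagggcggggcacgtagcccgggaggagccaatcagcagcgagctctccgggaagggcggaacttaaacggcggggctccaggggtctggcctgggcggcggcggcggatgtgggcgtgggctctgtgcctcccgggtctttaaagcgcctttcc
Casp8ap2: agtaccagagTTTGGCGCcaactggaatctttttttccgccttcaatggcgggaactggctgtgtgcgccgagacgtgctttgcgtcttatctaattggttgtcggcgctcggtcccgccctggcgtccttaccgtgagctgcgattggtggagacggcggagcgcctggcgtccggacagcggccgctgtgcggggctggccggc
Mcm5: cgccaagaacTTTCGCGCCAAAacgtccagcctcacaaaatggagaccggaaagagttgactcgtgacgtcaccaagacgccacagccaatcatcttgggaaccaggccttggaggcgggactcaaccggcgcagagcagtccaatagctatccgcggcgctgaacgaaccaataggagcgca
In GRCm38.p6 these lie at chr1:128359686-128359825 (minus strand), chr19:38930870-38931009, chr2:72476099-72476238, chr17:56304118-56304332, chr4:32615284-32615489 and chr8:75109346-75109528 (all plus strand). Mcm6 had 3 matches, starting 110, 106 and 47 bases before the start site, of which the first pair overlap. Mcm5 had 2 overlapping matches, 153 and 149 bases before the start site. The matches of Hells, Cdca7, Uhrf1 and Casp8ap2 began 62, 71, 185 and 176 bases before it, that of Cdca7 on the opposite strand. A match describes the letters in the window and was not tied to any factor in these data.

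In retained cells the 41 genes were moderately higher in TMREhi, and the difference was uneven between roles. Together they had 3928 CPM (11413 UMIs) in TMREhi and 3064 CPM (322 UMIs) in TMRElo, a ratio of 1.28 (exact 95% interval 1.15–1.44). Intervals here and below hold counting error only, not variation between animals, sorts or cells. A single TMRElo cell held 71 of the 322 UMIs (22%), and the top TMREhi cell 1.54%. Without the top cell of each library the ratio was 1.45. A stricter filter, with at least 1000 genes and at most 5% mitochondrial UMIs, turned the ratio round to 0.941. A summed level cannot tell more cells in S phase apart from more UMIs in each.

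Of the 41 genes 38 reached a mean of 10 CPM over both libraries, and 28 of these were higher and 10 lower in TMREhi. The median log2 ratio (with 1 CPM added to both values) was 0.42 over the 38 genes and −0.35 over all 7802 genes at that mean. At least 2-fold higher were 6 genes, Tyms, Cdca7, Dtl, Cdc6, Tipin and Pola1, and 10.0% of all genes tested passed the same fold (8.23% with genes at 0 UMIs held to the level of 3 UMIs). The count of 6 was 17 with all deposited barcodes, 15 with no mitochondrial limit, 11 without the top cell of each library and 11 when scaled without ribosomal and mitochondrial genes. It was 4 under the stricter filter and 4 with a mean of at least 50 CPM. Without the 5 deepest cells of each library it was 24 (15 with genes at 0 held to 3 UMIs), and the summed ratio was 2.25. The share of all genes past the fold is not given for these other settings. At least 2-fold lower was 1 gene, Ccne2, against 29.9% of all genes. Of the 41 single-gene intervals 36 held equality, among them those of Dtl, Cdc6, Pola1 and Ccne2. Tyms, Rrm2, Cdca7 and Tipin were higher and Rfc2 lower, with no correction for reading 41 intervals. Cenpu, Exo1 and Dscc1 had 33, 58 and 50 UMIs in TMREhi and 0 UMIs in TMRElo, where 3 UMIs would be 28.5 CPM, so no fold is given for them.

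**Figure D1:**
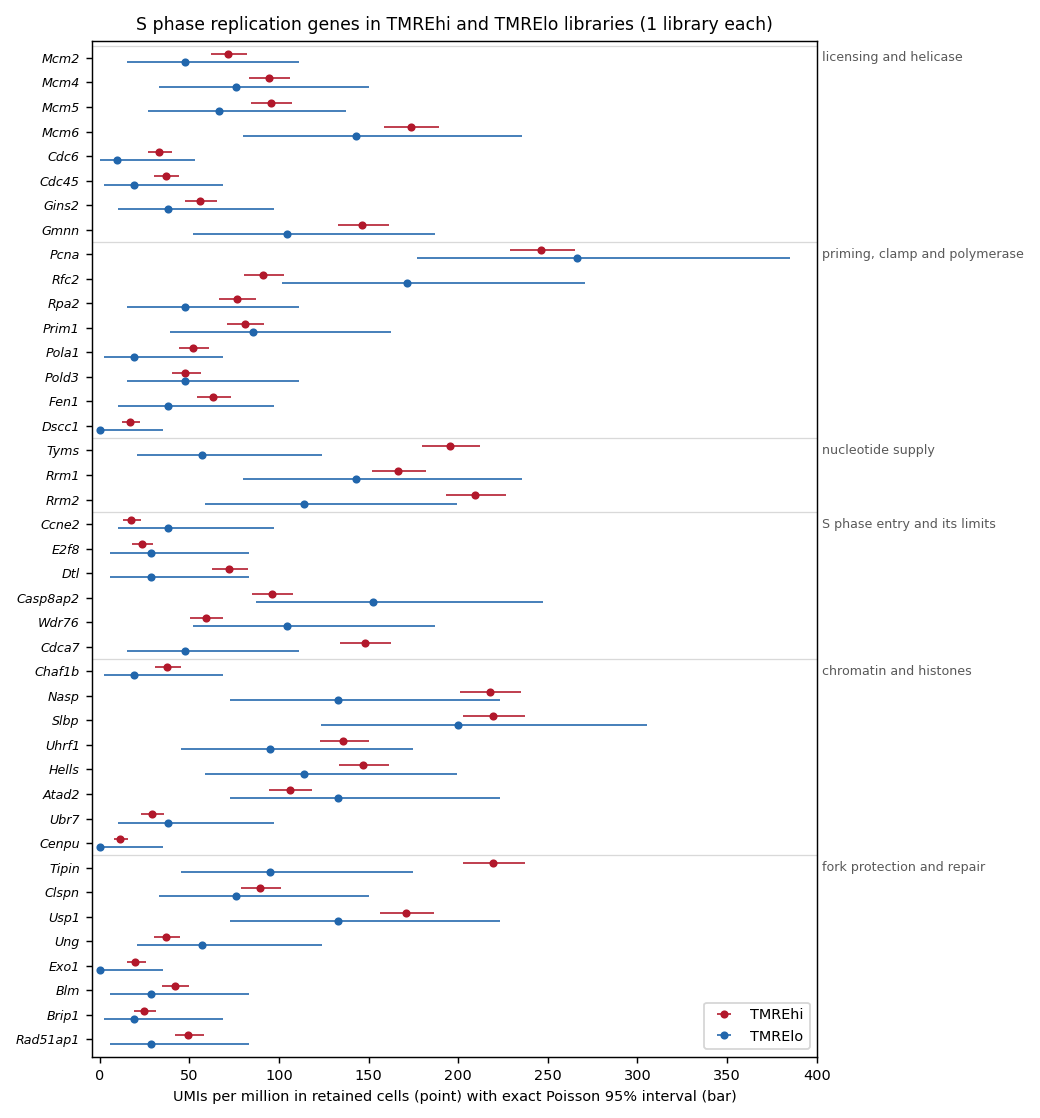
Level of each of the 41 genes in retained cells, in CPM, with TMREhi in red above TMRElo in blue, grouped by role; points are the library values and bars exact Poisson 95% intervals. The TMRElo bars are several times wider than the TMREhi bars, and the points lie apart most clearly for Tyms, Cdca7, Tipin and Rfc2.

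Genes that supply deoxynucleotides stood at 571 CPM in TMREhi and 314 CPM in TMRElo as a group of 3, a ratio of 1.82 (1.29–2.65). Tyms, which makes thymidylate, had 195 CPM in TMREhi and 57.1 CPM in TMRElo, a ratio of 3.42 (1.56–9.37) on 6 TMRElo UMIs. Rrm2, the small subunit of ribonucleotide reductase, which is made in S phase, had 209 CPM in TMREhi and 114 CPM in TMRElo (1.83, 1.04–3.57). The large subunit was closer between the libraries: Rrm1 had 167 CPM in TMREhi and 143 CPM in TMRElo (1.17, 0.70–2.10). The interval of Rrm1 overlaps those of Rrm2 and Tyms, and the difference between the genes was not tested.

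Licensing and helicase genes were all higher in TMREhi, 8 of 8, with 707 CPM in TMREhi and 504 CPM in TMRElo (1.40, 1.07–1.88). The 4 MCM subunits differed little one by one. Mcm6 had 173 CPM in TMREhi and 143 CPM in TMRElo (1.22, 0.73–2.19). Mcm5 had 95.3 CPM in TMREhi and 66.6 CPM in TMRElo (1.43, 0.685–3.59), and Mcm2 and Mcm4 had ratios of 1.5 and 1.24. For Gmnn, which encodes geminin, the inhibitor of a second licensing in the same cycle, TMREhi had 147 CPM and TMRElo 105 CPM (1.40, 0.775–2.83). Cdc6, which helps load the helicase, rests on 1 TMRElo UMI (33.0 CPM in TMREhi and 9.52 CPM in TMRElo, 3.47, 0.608–139), and Cdc45 on 2. None of these single-gene intervals excludes equality.

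Priming, clamp and polymerase genes had the same sum in both libraries, 675 CPM in TMREhi and 676 CPM in TMRElo (0.999, 0.789–1.28). Pcna, the clamp, had 246 CPM in TMREhi and 266 CPM in TMRElo (0.92, 0.634–1.40). Rfc2, a subunit of the complex that loads the clamp, was the member with the clearest opposite direction, with 91.2 CPM in TMREhi and 171 CPM in TMRElo (0.53, 0.33–0.912). Prim1, the catalytic primase subunit, had 80.9 CPM in TMREhi and 85.6 CPM in TMRElo (0.94, 0.489–2.09). Fen1, which trims flaps on the lagging strand, and Rpa2, which coats single-stranded DNA, had ratios of 1.66 (0.639–6.17) and 1.61 (0.678–4.99).

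Fork protection and repair genes summed to 654 CPM in TMREhi and 438 CPM in TMRElo (1.49, 1.11–2.05), and of the 7 with UMIs in both libraries 6 were higher in TMREhi. Tipin, which stabilises stalled forks together with Timeless, had 220 CPM in TMREhi and 95.2 CPM in TMRElo (2.31, 1.25–4.83). Clspn, the claspin mediator of the replication checkpoint, had 89.5 CPM in TMREhi and 76.1 CPM in TMRElo (1.18, 0.588–2.75). Usp1, which removes ubiquitin from PCNA, had 171 CPM in TMREhi and 133 CPM in TMRElo (1.28, 0.758–2.37). The exception among those 7 was Ung, a uracil-DNA glycosylase, at 37.2 CPM in TMREhi and 57.1 CPM in TMRElo (0.651, 0.29–1.81).

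Chromatin genes summed to 904 CPM in TMREhi and 733 CPM in TMRElo (1.23, 0.984–1.57). Nasp, a chaperone of histones H3 and H4, had 218 CPM in TMREhi and 133 CPM in TMRElo (1.63, 0.966–3.0). Slbp, which binds the stem-loop of histone transcripts, had 220 CPM in TMREhi and 200 CPM in TMRElo (1.10, 0.713–1.79). Uhrf1, which brings the maintenance methyltransferase to hemimethylated DNA, had 136 CPM in TMREhi and 95.2 CPM in TMRElo (1.43, 0.769–3.0). The group named S phase entry and its limits held Ccne2, E2f8, Dtl, Casp8ap2, Wdr76 and Cdca7. As a sum it was even, with 416 CPM in TMREhi and 400 CPM in TMRElo (1.04, 0.766–1.45), although its members differed. Cdca7 and Casp8ap2 were placed in it rather than with the chromatin genes, which bears on both sums. Cdca7, a partner of the remodeller Hells, had 148 CPM in TMREhi and 47.6 CPM in TMRElo (3.11, 1.32–9.63), while Casp8ap2, needed to process histone transcripts, had 96.0 CPM in TMREhi and 152 CPM in TMRElo (0.63, 0.382–1.12).

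Other genes of DNA replication, 63 that are not among the 41, were read in the same way. Of the 57 at the mean of 10 CPM, 40 were higher and 17 lower in TMREhi, 15 of them at least 2-fold higher and 5 at least 2-fold lower, with a median log2 ratio of 0.41. Gins1 was counted in the 15 with 80 TMREhi UMIs and 0 TMRElo UMIs. Held to the level of 3 UMIs it drops out, which leaves 14. Dut, which keeps uracil out of DNA, had the highest mean level of these, with 516 CPM in TMREhi and 190 CPM in TMRElo (2.71, 1.75–4.45). The next 7 by mean level were Dnmt1, Mcm7, Topbp1, Ssbp1, Mcm3, Rfc1 and Rpa3, with ratios between 1.07 (Topbp1) and 2.04 (Rpa3, 1.03–4.75). A list of 52 genes of G2 and mitosis had 10506 CPM in TMREhi and 5624 CPM in TMRElo (1.87, 1.72–2.03). Histone genes, whose transcripts are made in S phase and mostly lack a poly(A) tail, had 5795 CPM in TMREhi and 6471 CPM in TMRElo (0.895, 0.829–0.968). One TMRElo cell held 56.9% of those histone UMIs, and without the top cell of each library the histone ratio was 1.88.

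Splitting the barcodes by their share of ribosomal protein UMIs separated the values of the libraries. Among barcodes with at least 500 genes, high-ribosomal ones (15% or more) numbered 292 in TMREhi and 16 in TMRElo, and low-ribosomal ones 733 and 117. The low-ribosomal class had median mitochondrial shares of 16.9% in TMREhi and 14.4% in TMRElo and median depths of 1555 and 1037 UMIs. The high-ribosomal class had mitochondrial shares of 3.55% and 3.92% and depths of 8356.5 and 4071 UMIs. The class is therefore also a class of depth and of mitochondrial share, and these were not separated. Whether low-ribosomal barcodes are intact cells was not tested, which bears on every value given for them.

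In the low-ribosomal class the 41 genes had 5176 CPM (6794 UMIs) in TMREhi and 2230.1 CPM (301 UMIs) in TMRElo, a ratio of 2.32 (2.07–2.61). Of 40 genes at the mean of 10 CPM, 38 were higher and 2 lower in TMREhi, and 27 were at least 2-fold higher, against 15.8% of all genes tested (14.1% with genes at 0 UMIs held to the level of 3 UMIs). The median log2 ratio was 1.22, and −0.06 over all genes. Uhrf1 had 299 CPM in TMREhi and 66.7 CPM in TMRElo (4.49, 2.34–9.89). Nasp had 237 CPM in TMREhi and 59.3 CPM in TMRElo (4.0, 2.0–9.34). Rrm2 had 151 CPM in TMREhi and 22.2 CPM in TMRElo (6.79, 2.29–33.2), on 3 TMRElo UMIs. Mcm5, Gmnn and Clspn had 2 TMRElo UMIs each and ratios of 8.28 (2.25–68.9), 7.71 (2.10–64.3) and 10.4 (2.84–86.3). Pcna was closer, with 249.9 CPM in TMREhi and 178 CPM in TMRElo (1.41, 0.928–2.23). Slbp, Prim1, Casp8ap2 and Rfc2 had ratios of 1.48, 1.52, 1.54 and 1.25.

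Every role was higher in low-ribosomal TMREhi barcodes, from 1.76 (1.35–2.32) for priming, clamp and polymerase genes to 3.26 (2.07–5.45) for nucleotide supply. The 2 genes on the lower side were Ccne2 and Dscc1, at 0.884 (0.351–2.86) and 0.977 (0.236–8.65). Genes of G2 and mitosis had 11688 CPM in TMREhi and 3156 CPM in TMRElo there (3.70, 3.36–4.09), histone genes a ratio of 5.99 (4.80–7.58) and the other replication genes one of 1.67 (1.51–1.84). Markers of αβ lineage thymocytes over all barcodes with at least 500 genes summed to 531 CPM in TMREhi and 269 CPM in TMRElo, with Rag2 and Ptcra at 0 UMIs in TMRElo. With the low-ribosomal class limited to barcodes with a leading γ V segment and no Rag1 UMI, 326 in TMREhi and 79 in TMRElo, the 41 genes had 4224 CPM and 2219 CPM (1.90, 1.65–2.21). In that set 19 genes were at least 2-fold higher in TMREhi, against 16.0% of all genes. Of the 19, 5 had 0 TMRElo UMIs, and with such genes held to the level of 3 UMIs the count was 15, against 12.1% of all genes.

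In the high-ribosomal class the libraries were close, with 3949 CPM in TMREhi and 3638 CPM in TMRElo (1.09, 0.969–1.22). A single barcode held 71 of the 307 TMRElo UMIs of the list in this class (23.1%), on which the TMRElo value leans. Of 39 genes at the mean of 10 CPM, 25 were higher and 14 lower in TMREhi, and 5 were at least 2-fold higher, against 11.9% of all genes. Exo1 was counted among the 25 and the 5 with 60 TMREhi UMIs (20.5 CPM) and 0 TMRElo UMIs, where 3 UMIs would be 35.6 CPM, so no fold is shown for it. With genes at 0 held to the level of 3 UMIs, 4 members (Tyms, Cdca7, Dtl and Cdc6) and 8.22% of all genes were at least 2-fold higher. The 2 lowest ratios were those of Rfc2, with 91.0 CPM in TMREhi and 190 CPM in TMRElo (0.48, 0.29–0.852), and Ccne2, with 17.8 CPM in TMREhi and 47.4 CPM in TMRElo on 4 TMRElo UMIs (0.375, 0.138–1.43). The median log2 ratio was 0.11 (0.10 without Exo1), and −0.13 over all genes. High-ribosomal barcodes supply most UMIs of the retained cells, so the 2 sets are not independent. No interval was computed for the difference between the low-ribosomal and the high-ribosomal ratio.

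Receptor classes were read in the same way. A barcode was assigned to the γ V segment with most UMIs, with Trgv2, Tcrg-V1 and Tcrg-V3 summed as the Vγ1 family and ties left out. Low-ribosomal Vγ1-family-led barcodes had 4895 CPM in TMREhi and 2293 CPM in TMRElo (2.14, 1.81–2.54). High-ribosomal Vγ1-family-led barcodes had 4104 CPM in TMREhi and 4222 CPM in TMRElo (0.972, 0.859–1.10). Of the 66 Vγ1-family-led TMRElo barcodes 56 were low-ribosomal, so the high-ribosomal TMRElo value rests on few barcodes. A single high-ribosomal one of the 66 held 71 of their 411 UMIs of the list over both ribosomal classes (17.3%). Its share of the high-ribosomal UMIs alone is larger, and the ratio of 0.972 is not given without it. Low-ribosomal Vγ4-led barcodes had 5069.8 CPM in TMREhi and 901 CPM in TMRElo (5.63, 3.57–9.41). That last value rests on 19 UMIs in 20 TMRElo barcodes, of which 1 barcode held 31.6%. All 20 were low-ribosomal, so Vγ4-led barcodes of the high-ribosomal class were not compared between the libraries.

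**Figure D2:**
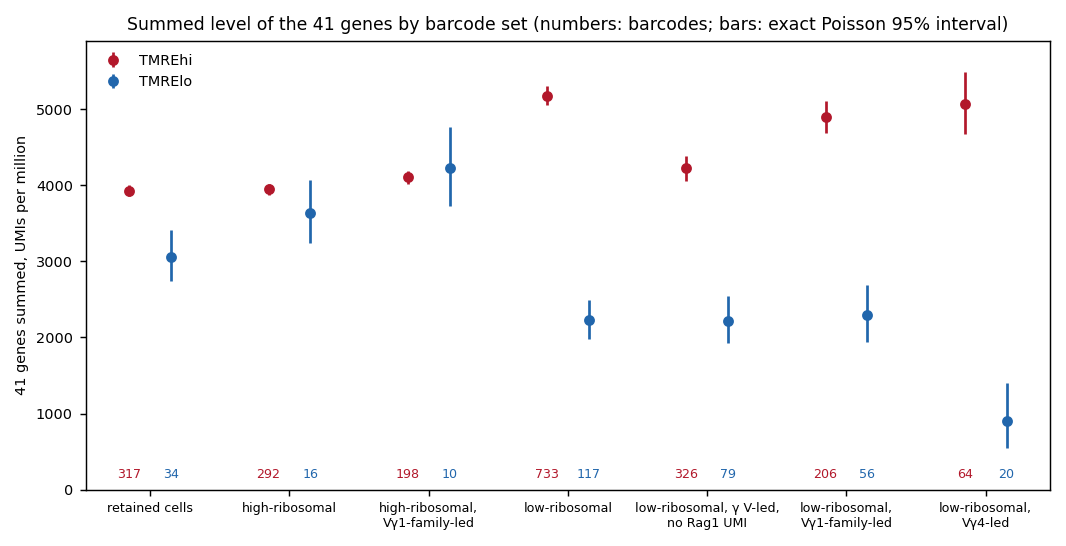
Summed level of the 41 genes, in CPM, in 7 sets of barcodes, with TMREhi in red to the left of TMRElo in blue; bars are exact Poisson 95% intervals and the coloured numbers above the axis give the barcodes. The points lie close together in the high-ribosomal sets and far apart in the low-ribosomal sets.

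Spread over single barcodes was compared after thinning each barcode to 1000 UMIs. Of retained cells 35 TMREhi and 7 TMRElo cells were too shallow and were left out. At least 5 UMIs of the 41 genes were then found in 86 of 282 TMREhi cells (30.5%, exact binomial interval 25.2–36.2) and in 5 of 27 TMRElo cells (18.5%, 6.30–38.1). Before thinning the shares were 62.8% in TMREhi and 35.3% in TMRElo. In TMREhi 23 cells lay 1 UMI below the limit and 16 on it, and in TMRElo 0 and 3. No cell type that should lack these genes was available to give a background share. With all barcodes of at least 500 genes, 306 of 866 TMREhi barcodes (35.3%, 32.1–38.6) and 14 of 84 TMRElo barcodes (16.7%, 9.42–26.4) had at least 5. At this depth the direction differed by class, with 218 of 578 TMREhi (37.7%, 33.8–41.8) and 8 of 68 TMRElo (11.8%, 5.22–21.9) low-ribosomal barcodes, but 88 of 288 TMREhi (30.6%, 25.3–36.2) and 6 of 16 TMRElo (37.5%, 15.2–64.6) high-ribosomal ones. The intervals of the high-ribosomal shares overlap, and 3 of those 6 TMRElo and 19 of those 88 TMREhi barcodes lay on the limit. Thinned to 2000 UMIs, the high-ribosomal shares with at least 5 lay the other way. They were 52.2% (46.1–58.2) in TMREhi and 40.0% (16.3–67.7) in TMRElo, again with overlapping intervals.

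Genes of G2 and mitosis split the same thinned barcodes further. At least 5 UMIs of both lists were found in 241 of 866 TMREhi barcodes (27.8%) and in 7 of 84 TMRElo barcodes (8.33%). Barcodes with at least 5 UMIs of the 41 genes and fewer of the G2 and mitosis list were 65 in TMREhi (7.51%) and 7 in TMRElo (8.33%). Fewer than 5 of either list were found in 358 TMREhi barcodes (41.3%) and in 62 TMRElo barcodes (73.8%). No phase of the cell cycle was assigned from these counts.

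**Figure D3:**
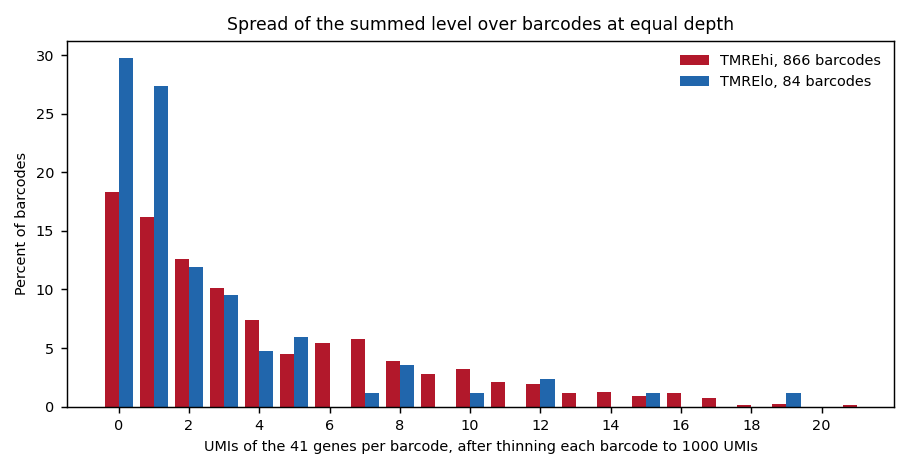
Percent of barcodes (vertical axis) by the number of UMIs of the 41 genes after thinning to 1000 UMIs, for 866 TMREhi barcodes in red and 84 TMRElo barcodes in blue, all with at least 500 genes. TMRElo barcodes pile up at 0 and 1 UMI, and TMREhi barcodes spread to higher numbers, the highest being 21 in TMREhi and 19 in TMRElo.

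Within TMREhi the leading γ V segment went with the level of the list. Vγ5 and Vγ6 are the segments used by the earliest fetal γδ T cells, which settle in skin and mucosal tissues. Vγ6-led barcodes had 2036 CPM (93 barcodes), Vγ5-led 1783 CPM (38), Vγ4-led 4273 CPM (73) and Vγ1-family-led 4232 CPM (404). Barcodes with no γ V UMI had 6227 CPM (327 barcodes), tied ones 4401 CPM (82), and Vγ7-led ones 5333 CPM (8, with 58.4% of the UMIs in 1 barcode). Low-ribosomal barcodes made up 58.1% of Vγ6-led, 78.9% of Vγ5-led, 87.7% of Vγ4-led, 51.0% of Vγ1-family-led and 94.2% of barcodes with no γ V UMI, so these levels mix the ribosomal classes in different shares. Median depths were 1917, 1393, 1845 and 3594.5 UMIs in Vγ6-, Vγ5-, Vγ4- and Vγ1-family-led barcodes. TMRElo had no Vγ6-led and 1 Vγ5-led barcode, so these classes were described in TMREhi only.

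Vγ6-led over Vγ1-family-led barcodes gave a ratio of 0.48 (0.442–0.523), and all 41 genes reached the mean of 10 CPM and were lower in Vγ6-led barcodes. At least 2-fold lower were 21 of them, against 11.3% of all genes tested, and the median log2 ratio was −1.03, against 0.06 over all genes. Over both ribosomal classes nucleotide supply had the lowest ratio of the 6 roles, with 151 CPM in Vγ6-led and 575 CPM in Vγ1-family-led barcodes (0.26, 0.19–0.35). This was not so in each class: the ratio was 0.159 (0.0966–0.246) among high-ribosomal barcodes, the lowest of the roles, and 0.723 (0.451–1.11) among low-ribosomal ones, the closest to equality. Rrm1 had 48.2 CPM in Vγ6-led and 183 CPM in Vγ1-family-led barcodes (0.26, 0.143–0.445), and Tyms had 48.2 CPM and 194 CPM (0.25, 0.135–0.421). By class Rrm1 had a ratio of 0.0787 (0.0162–0.231) among high-ribosomal and 0.739 (0.354–1.40) among low-ribosomal barcodes. Clspn had 20.6 CPM in Vγ6-led and 100.1 CPM in Vγ1-family-led barcodes (0.21, 0.075–0.455). The 4 genes closest to equality were Casp8ap2, Cenpu, Blm and Slbp. Casp8ap2 had 99.7 CPM in Vγ6-led and 108 CPM in Vγ1-family-led barcodes (0.93, 0.609–1.36), and Slbp had 169 CPM and 222 CPM (0.76, 0.556–1.02).

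Both ribosomal classes gave the same direction for Vγ6. The ratio was 0.382 (0.341–0.427) among high-ribosomal barcodes, 39 Vγ6-led and 198 Vγ1-family-led, and 0.65 (0.57–0.738) among low-ribosomal ones, 54 and 206. In the low-ribosomal class 37 of 40 genes were lower and 3 higher in Vγ6-led barcodes, and 14 were at least 2-fold lower, against 17.3% of all genes. Ung was one of the 14 with 0 Vγ6-led UMIs, and with such genes held to the level of 3 UMIs the count was 13, against 12.1% of all genes. Single-gene intervals held equality for 36 of 41 genes among low-ribosomal barcodes, all but Mcm5, Dtl, Hells, Nasp and Clspn. Among high-ribosomal barcodes they held it for 16 of 41, and the others were lower in Vγ6-led barcodes. Genes of G2 and mitosis had ratios of 0.273 (0.251–0.295) and 0.676 (0.618–0.738) in those classes. Vγ5-led over Vγ1-family-led barcodes gave 0.42 (0.362–0.488), with 27 of 40 genes at least 2-fold lower, against 12.5% of all genes. Ccne2, Cdc45 and E2f8 were counted in the 27 with 0 Vγ5-led UMIs, and with such genes held to the level of 3 UMIs the count was 24, against 10.2% of all genes. A single barcode held 37 of the 184 Vγ5-led UMIs of the list (20.1%), and the top Vγ6-led barcode 61 of 592 (10.3%). Of the 38 Vγ5-led barcodes 30 were low-ribosomal. Among low-ribosomal barcodes 36 of 41 Vγ5 intervals held equality, and among high-ribosomal ones 26 of 41. The remaining genes were lower in Vγ5-led barcodes. Vγ6-led over Vγ5-led barcodes gave 1.14 (0.966–1.35), so these neighbours in the order did not differ beyond counting error. Vγ4-led over Vγ1-family-led barcodes gave 1.01 (0.944–1.08), 0.817 (0.732–0.909) among high-ribosomal barcodes and 0.758 among retained cells. Of the 73 Vγ4-led barcodes 64 were low-ribosomal, so the value of 0.817 rests on few barcodes. A single Vγ4-led barcode held 110 of the 960 UMIs of the list (11.5%). Among low-ribosomal barcodes 39 of 41 single-gene intervals held equality, and Pcna and Cdc6 were higher in Vγ4-led ones. After thinning, at least 5 UMIs of the list were in 14.3% (7.61–23.6) of Vγ6-led, 8.82% (1.86–23.7) of Vγ5-led, 36.4% (24.9–49.1) of Vγ4-led and 34.1% (29.4–39.0) of Vγ1-family-led barcodes.

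Rag1 is needed to cut the receptor genes during their rearrangement, and 222 TMREhi barcodes had at least 1 UMI of it, against 1 barcode in TMRElo. Rag1-positive TMREhi barcodes had 5474 CPM of the 41 genes and the 803 Rag1-negative ones 4121 CPM (1.33, 1.28–1.38). Their median depths were 1640 and 2138 UMIs, and low-ribosomal barcodes made up 88.7% and 66.7% of them. Rag1-negative means only that no Rag1 UMI was found at that depth. In Rag1-positive barcodes 35 of 41 genes were higher and 6 lower, and 3 (Cenpu, Ccne2 and E2f8) were at least 2-fold higher, against 9.24% of all genes. The median log2 ratio was 0.43, and 0.20 over all genes. E2f8, a repressor that limits E2F target genes late in S phase, had 66.1 CPM in Rag1-positive and 31.2 CPM in Rag1-negative barcodes (2.12, 1.45–3.03). Its ratio was smaller within the classes, 1.67 (1.06–2.59) among low-ribosomal and 1.41 (0.612–2.87) among high-ribosomal barcodes. Cdca7 had 259.9 CPM in Rag1-positive and 136 CPM in Rag1-negative barcodes (1.91, 1.60–2.28). Licensing and helicase genes had 856 CPM and 756 CPM (1.13, 1.03–1.24), with ratios of 0.982 (0.859–1.12) among low-ribosomal and 1.18 (1.03–1.35) among high-ribosomal barcodes. The summed ratio was 1.28 (1.22–1.35) among low-ribosomal and 1.21 (1.14–1.28) among high-ribosomal barcodes.

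**Figure D4:**
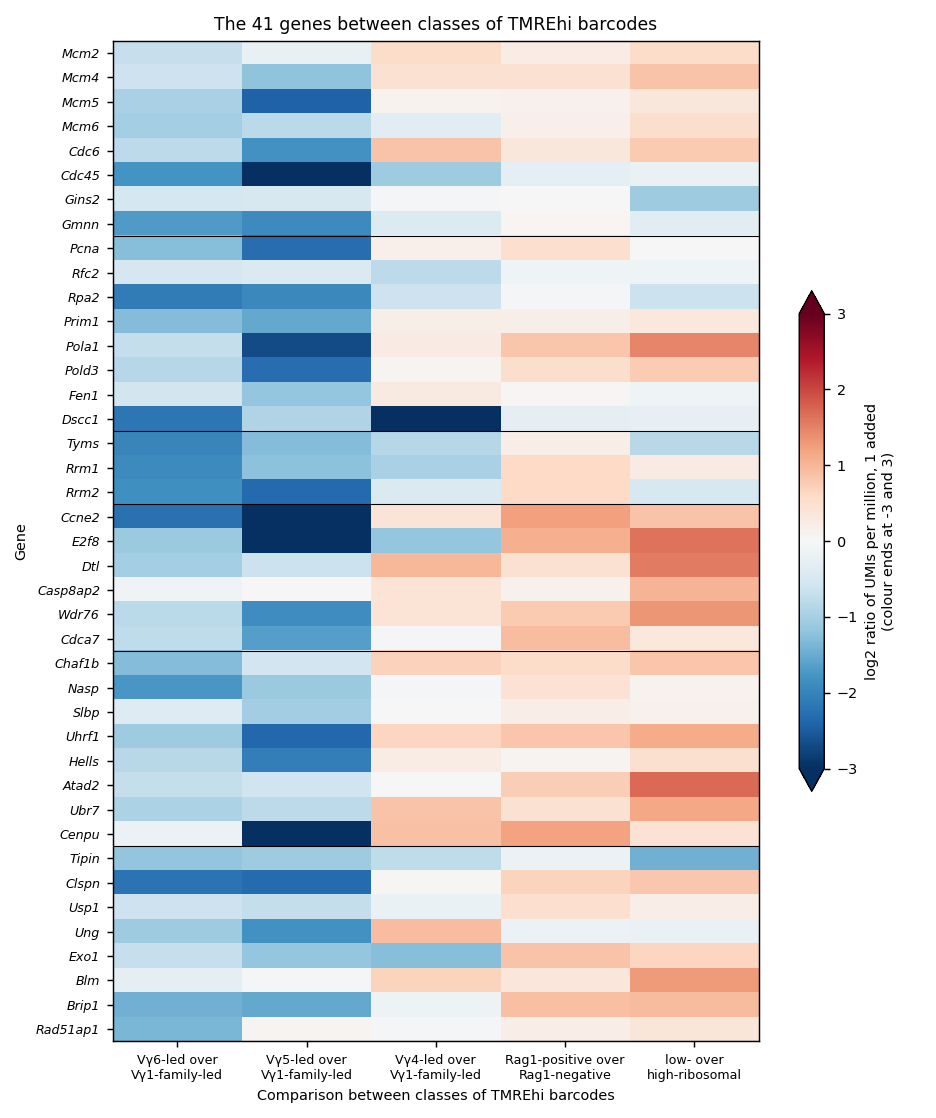
Log2 ratio of each of the 41 genes (rows, ordered by role with black lines between roles) in 5 comparisons of TMREhi barcode classes (columns), red where the class named first is higher and blue where it is lower, with colour ending at −3 and 3. The Vγ6 column is blue for all 41 genes, the Rag1 column mostly pale red, and the ribosomal column runs from Tipin (−1.43) to Atad2 (1.69); squares at the blue end include genes with 0 UMIs in the class named first.

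Between the ribosomal classes of TMREhi the 41 genes went in both directions. Low-ribosomal barcodes had 5176 CPM and high-ribosomal ones 3949 CPM (1.31, 1.27–1.35), and 30 genes were higher and 11 lower in low-ribosomal barcodes. At least 2-fold higher were 9 genes, against 45.0% of all genes, and Gins2 and Tipin were at least 2-fold lower, against 10.7%. The members' median log2 ratio of 0.44 lay below that of all genes, 0.85. Atad2, a bromodomain ATPase, had 358 CPM in low-ribosomal and 110 CPM in high-ribosomal barcodes (3.25, 2.81–3.76). Pola1, the catalytic subunit of polymerase α, had 142 CPM and 51.0 CPM (2.79, 2.24–3.49). Tipin had 80.8 CPM in low-ribosomal and 219 CPM in high-ribosomal barcodes (0.37, 0.297–0.453). Among retained cells alone the summed ratio turned round to 0.766. In TMRElo the low-ribosomal class was the lower one, with 2230.1 CPM against 3638 CPM in high-ribosomal barcodes (0.61, 0.521–0.721). Of the UMIs behind that high-ribosomal value, 1 of 16 barcodes held 23.1%.

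The longer genes of the list were those relatively higher in low-ribosomal barcodes. Across the 41 genes, which are not independent replicates, the log2 ratio of low-ribosomal over high-ribosomal barcodes went with the length of the gene in the genome (GENCODE vM21), with a Spearman rho of 0.58. The 13 longest genes, 28077 bases or more, had a median log2 ratio of 0.96 and 12 of them were higher, while the 13 shortest, up to 14870 bases, had a median of −0.12 and 6 were higher. The same rho over 8439 genes was 0.56, so the relation is one of the whole table. It compares 2 classes of the same library that also differ in depth and mitochondrial share.

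From barcode to barcode the genes went together. Each TMREhi class was split at the median share of UMIs from the other members, about 0.25% of a barcode's UMIs, and the level of the left-out gene was compared between the upper and the lower group. Of the whole-list shares, 6 of 292 high-ribosomal and 45 of 733 low-ribosomal barcodes lay within 10% of that median. The upper group was deeper in both classes. Split by the whole list, the upper and lower groups had medians of 12552 and 5970.5 UMIs among high-ribosomal barcodes. Among low-ribosomal barcodes the medians were 2074.5 and 1206 UMIs. In high-ribosomal barcodes the ratio of upper to lower group had a range from 2.01 (Casp8ap2) to 61.5 (Ung, 1 UMI in the lower group) over 40 genes, and Ccne2 had 52 UMIs in the upper and 0 in the lower group. Clspn had 132 CPM in the upper and 8.54 CPM in the lower group (15.4, 7.99–34.1). Rrm2 had 311 CPM in the upper and 28.5 CPM in the lower group (10.9, 7.55–16.3). Pcna had 354 CPM in the upper and 60.8 CPM in the lower group (5.82, 4.5–7.64). At the other end Casp8ap2 (2.01, 1.5–2.72), Ubr7 (2.07, 1.21–3.70) and Rfc2 (2.83, 2.04–4.01) followed the rest least.

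In low-ribosomal barcodes Casp8ap2 at 2.05 (1.52–2.80) and Rfc2 at 2.32 (1.45–3.85) followed the rest least, and Clspn had 10.9 (5.95–22.2). The order of other genes was not kept. Exo1 had 16.4 in high-ribosomal and 3.81 in low-ribosomal barcodes, and Gins2 had 11.1 and 3.73. Rad51ap1 went from 5.64 to 50.7, the latter on 1 UMI in the lower group. Histone genes as a sum stood between the lowest and highest genes, at 3.43 (3.28–3.58) in high-ribosomal and 3.21 (2.97–3.48) in low-ribosomal barcodes. Genes of G2 and mitosis went with the list least in high-ribosomal barcodes, at 1.25 (1.22–1.28), and at 2.38 (2.28–2.47) in low-ribosomal ones.

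**Figure D5:**
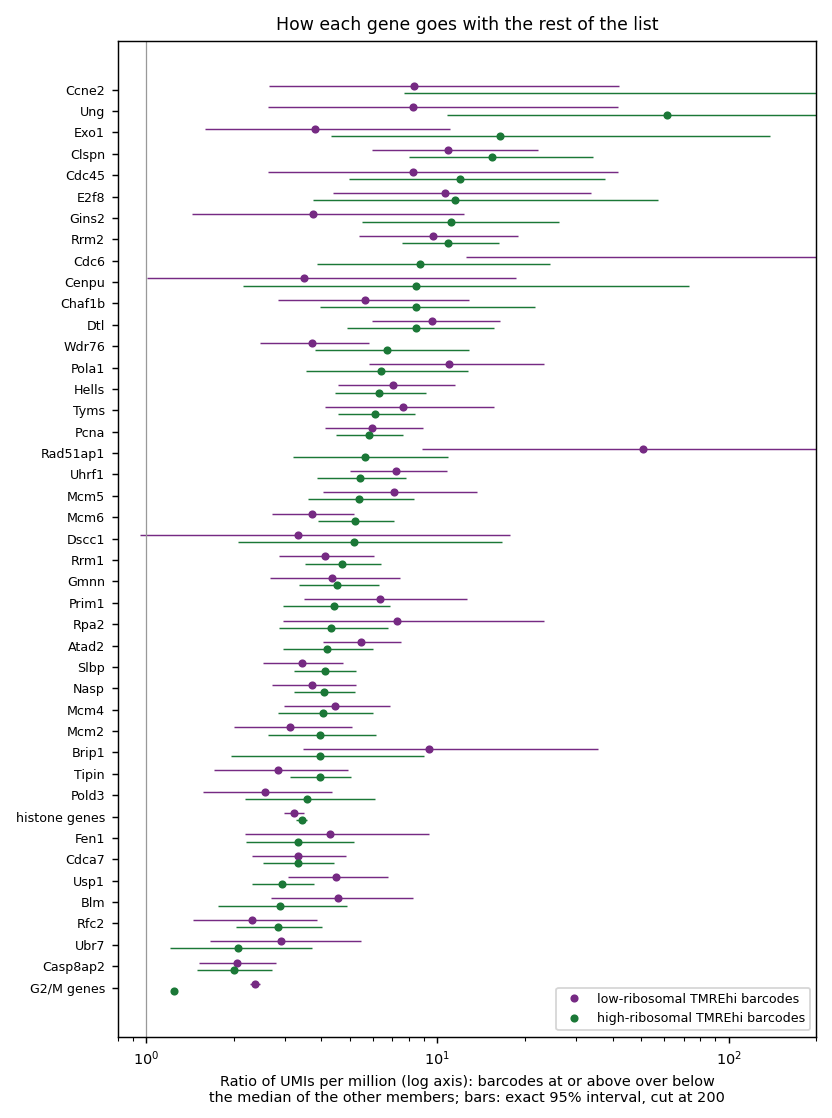
Ratio of each gene's level (log axis) between TMREhi barcodes at or above and below the median share of the other members, low-ribosomal in purple above high-ribosomal in green, with exact 95% intervals ending at 200; genes are ordered by the high-ribosomal ratio. All points for the 41 genes lie above 2, with Casp8ap2 lowest in both classes and G2 and mitosis genes below it in high-ribosomal barcodes; a bar without a point marks 0 UMIs in the lower group.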

How the data were processed

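For both samples the authors deposited a matrix of UMI counts, whole numbers that had not been normalized. Cell Ranger 3.0.2 made it, per the file headers. Cell Ranger 3.0 with genome build mm10 is what the processing notes of the submitters list. How cells were called and which annotation was counted is not given in the sources used here.

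UMIs of the barcodes in a set were summed and scaled to CPM. Ratios are TMREhi over TMRElo, or the class named first over the second. Log2 ratios add 1 CPM to both values and are used where the mean of both sides reaches 10 CPM. They understate the difference of low genes. Intervals are exact at 95% (Poisson for levels, conditional binomial for ratios, Clopper-Pearson for shares). A count of 3 served as the floor for a gene at 0. No test was made between groups. The deposited barcodes held 4350485 UMIs in TMREhi and 245048 in TMRElo, so a TMRElo value is far less precise than a TMREhi value.

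The 41 genes and the other lists were chosen with earlier results of these data known. All 41 may be named by the rule used, with the 8 of highest mean level among the other replication genes. Doublets were called with Scrublet (5 of 1202 TMREhi and 9 of 196 TMRElo barcodes) and kept, with their removal as an alternative. The ratio and interval computation was tested on simulated data. Software was scanpy 1.11.5, scipy 1.17.1, numpy 2.4.6, pandas 2.3.3 and matplotlib 3.10.9 under Python 3.11.15, with seed 1. Promoters came from RefSeq (GRCm38.p6) and gene lengths from GENCODE vM21, in which 30934 of 31053 identifiers were found.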

Additional observations from a re-analysis of the deposited data

How the results depend on the processing

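The summed ratio of 1.28 between TMREhi and TMRElo retained cells depended on which barcodes were counted. It was 1.65 with all deposited barcodes, 1.56 with no mitochondrial limit, 2.25 without the 5 deepest cells of each library and 1.45 without the cell with most UMIs of the list, and it reversed to 0.941 under the stricter filter. The median log2 ratio was 1.53 without the 5 deepest cells. The count of genes at least 2-fold higher, 6, was 17, 15 and 24 under the first 3 of these settings, 11 without the top cell and 11 when scaled without ribosomal and mitochondrial genes. That count was 4 under the stricter filter and 4 with a mean of at least 50 CPM. The count at least 2-fold lower, 1, was 0, 0 and 0 under the same first 3, 5 under the stricter filter, 2 without the top cell, and 0 when scaled without those genes, with 10 CPM added and with a mean of at least 50 CPM. The cause was not tested.

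Within TMREhi, low-ribosomal over high-ribosomal (1.31) reversed to 0.766 in retained cells, and was 1.12 when scaled without ribosomal and mitochondrial genes, 1.26 and 1.27 at ribosomal limits of 20% and 10%, and 1.25 in Rag1-negative barcodes. Vγ6-led over Vγ1-family-led (0.48) was 0.383 in retained cells, 0.382 in high-ribosomal and 0.65 in low-ribosomal barcodes. Vγ4-led over Vγ1-family-led (1.01) was 0.758 in retained cells and 0.817 in high-ribosomal barcodes. Rag1-positive over Rag1-negative (1.33) was 1.14 in retained cells, 1.26 when scaled without ribosomal and mitochondrial genes and 1.21 in high-ribosomal barcodes. TMREhi over TMRElo in high-ribosomal barcodes (1.09) was 1.25 at a ribosomal limit of 20% and 0.901 in barcodes with a leading γ V segment and no Rag1 UMI, and in low-ribosomal barcodes (2.32) it was 1.95 and 1.90. The settings on Rag1 and the leading segment together, and those on the barcode with most UMIs within a ribosomal class, were chosen after seeing the data. Holding genes at 0 UMIs to the level of 3 UMIs, also chosen after seeing the data, left 6 genes higher and 1 lower. With these, 48 values moved by less than their counting interval or, for counts, by no more than 1.5 times. A further 34 values moved by more than that, and 2 reversed.

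No paired analysis was possible because each group has 1 library, which also leaves no replicate to omit. The 34 TMRElo cells, with 322 UMIs of the list, limit every value of that library, and the 16 high-ribosomal TMRElo barcodes limit that class. Free RNA in droplets was not measured.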
